A study of Mus musculus with 25 samples.

Results

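The TGF-beta signalling genes described here are 8 genes picked by name: the ligand Tgfb1, its anchor Nrros, the receptors Tgfbr1 and Tgfbr2, the signal carrier Smad3, the inhibitors Smad7 and Ski, and the target gene Tgfbi. They are 8 of the 22439 genes in the count matrices. All 8 passed the filter on low counts in microglia, where 10801 genes were tested. Their levels are given per library, cell type, deposited cluster and time point as CPM, the counts of a gene per 1000000 summed unique molecular identifiers (UMIs, which count captured RNA molecules).

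TGF-beta is made as a latent complex that is held on the cell surface or in the matrix until it is released. On microglia and other myeloid cells the protein Nrros tethers the latent ligand. The freed ligand binds the type II receptor Tgfbr2, which recruits and phosphorylates the type I receptor Tgfbr1, and Tgfbr1 then phosphorylates Smad2 and Smad3, which enter the nucleus with Smad4. Smad7 blocks and degrades the active receptor and Ski holds Smad complexes in a repressed state, so both act as brakes. In the central nervous system the pathway is known above all for keeping adult microglia in their resting state, and mice that lack the ligand, the receptor or Nrros in these cells lose the typical microglia genes.

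Of the 8 genes, 7 lie on GRCm38 at chr7:25687002-25705077 (Tgfb1, + strand), chr16:32142785-32165594 (Nrros, - strand), chr4:47353222-47414931 (Tgfbr1, + strand), chr9:116084293-116175360 (Tgfbr2, - strand), chr9:63646767-63757994 (Smad3, - strand), chr4:155154075-155222592 (Ski, - strand) and chr13:56609523-56639562 (Tgfbi, + strand), per GENCODE release M21. Smad7 lies on another chromosome and its sequence is not shown.

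Of the 8 genes, 4 are shown with the sequence just before their start, because 3 of them (Tgfbr1, Tgfbr2, Smad3) fell together after injury and the other, Tgfbi, rose. The sequences are RefSeq's for GRCm38.p6, run 5′ to 3′ on the gene's own strand and end at the base before the start site, or, for Tgfbi, at the base before the GENCODE start, after 187 bases. Capitals mark each match to the short SMAD-binding motif CAGAC or its reverse complement GTCTG. The windows are chr4:47352972-47353221 (Tgfbr1, + strand), chr9:116175364-116175613 (Tgfbr2, - strand), chr9:63757995-63758244 (Smad3, - strand) and chr13:56609336-56609522 (Tgfbi, + strand).
Tgfbr1: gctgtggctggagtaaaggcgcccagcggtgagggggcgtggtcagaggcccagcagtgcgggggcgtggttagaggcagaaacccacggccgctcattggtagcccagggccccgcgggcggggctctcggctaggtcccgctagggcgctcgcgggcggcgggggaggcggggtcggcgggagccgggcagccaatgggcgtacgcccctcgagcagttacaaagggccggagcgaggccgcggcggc
Tgfbr2: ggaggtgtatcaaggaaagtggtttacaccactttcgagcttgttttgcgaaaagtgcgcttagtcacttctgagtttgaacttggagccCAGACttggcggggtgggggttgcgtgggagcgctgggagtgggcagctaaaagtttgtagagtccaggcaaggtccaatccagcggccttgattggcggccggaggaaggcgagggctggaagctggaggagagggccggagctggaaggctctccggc
Smad3: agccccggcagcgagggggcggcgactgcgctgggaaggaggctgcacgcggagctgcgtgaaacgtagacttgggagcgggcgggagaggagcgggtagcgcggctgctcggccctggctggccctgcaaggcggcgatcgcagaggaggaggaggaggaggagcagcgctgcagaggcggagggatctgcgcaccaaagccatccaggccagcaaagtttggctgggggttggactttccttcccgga
Tgfbi: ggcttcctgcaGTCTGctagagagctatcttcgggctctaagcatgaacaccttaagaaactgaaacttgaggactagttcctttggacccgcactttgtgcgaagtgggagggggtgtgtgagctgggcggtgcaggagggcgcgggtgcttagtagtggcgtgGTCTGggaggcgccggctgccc
The motif was found once in the 250 bases of Tgfbr2, at 2 places in those of Tgfbi and not in those of Tgfbr1 or Smad3. Over all 32851 promoter windows of 250 bases in the same table, 42.2% held it on at least 1 strand. The SMAD palindrome GTCTAGAC (0.167% of all windows), the AP-1 motif TGACTCA (4.46%) and the ETS-type motif AGGAAGT, bound by the myeloid factor PU.1 (7.69%), were each searched on both strands and had no match in the windows of the 4 genes.

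The cells were myeloid cells of the mouse spinal cord, taken after spinal cord injury, or after laminectomy alone, which opens the bone over the cord and leaves the cord uninjured. Lesion tissue of 5 mm was dissociated, freed of myelin and sorted by fluorescence before 10x Genomics 3′ capture. The 25 libraries each pool 1 to 3 mice, so p-values measure the spread between these pools, and the ages of the mice are not given in the sources used here. Microglia were compared between 2 control libraries (Ctrl), 3 at day 1 (D1), 3 at day 2 (D2), 5 at day 3 (D3), 3 at day 10 (D10) and 1 at day 21 (D21). Libraries called mixed hold all YFP+ cells of Cx3cr1CreERT2 mice. Libraries called resident (RFP+/YFP+) or infiltrating (YFP alone) come from Cx3cr1CreERT2:R26tdTomato mice, in which Cre switches on the red reporter tdTomato. All groups, controls included, therefore carry Cre at the Cx3cr1 locus, a gene that microglia and many monocytes both use, and sort and strain cannot be told apart. The controls were 1 mixed female and 1 resident male library, and all D1 libraries with at least 20 microglia were mixed and male. A D3 library whose title and sort label disagree (D3_conflict 1) was left out of every fit except an alternative fit of macrophages.

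The 25 libraries held 486649 to 33204422 UMIs in 30958 cells. The authors' cell type codes are unnamed, and they were named from marker genes. The code with 13289 cells had 10 of 10 microglia markers at least 2 times as high as in the other cells, and the code with 12841 cells had 9 of 11 monocyte or macrophage markers, and its cells are named macrophages here. The dendritic-like (2712 cells) and neutrophil-like (2116 cells) codes had 6 of 8 and 8 of 8 of their markers. The microglia sums compared between time points held 23 to 1500 cells and 135097 to 7794902 UMIs per library, and the smallest, D2_mixed 2, rests on 23 cells. The infiltrating libraries D10_infiltrating 2 and D21_infiltrating 1 hold 36 and 41 cells (84112 and 128335 UMIs) with the microglia code against their sort. These are not among the 17 sums compared between time points, but they enter the comparison within libraries. Across libraries, 127 cell barcodes occurred in more than 1 library, on 254 cells.

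After injury, microglia had less RNA of both TGF-beta receptors, of Smad3 and of Smad7, and more of Tgfbi, at each of D1, D2 and D3. At D1, 4 of the 8 genes were lower and 1 higher at an adjusted p under 0.05 (edgeR's quasi-likelihood test, adjusted over all 10801 genes), in a comparison in which 46.6% of all genes passed (23.9% higher, 22.7% lower). At D2 it was again 4 lower and 1 higher, against 29.7% of all genes (17.6% higher, 12.2% lower). At D3, 5 were lower and 1 higher, against 37.6% (20.1% higher, 17.6% lower). At D10 none of the 8 passed, against 10.3% of all genes (8.06% higher, 2.22% lower), and their values lay between -0.93 (Smad3) and 1.04 (Tgfbi) on the log2 scale. At D21, with 1 library whose spread is assumed to equal that of the other groups, none passed, against 6.98% (6.12% higher, 0.861% lower). In the order D1, D2, D3, D10, D21 the median log2 change of the 8 genes was -1.48, -1.03, -1.09, -0.37 and -0.62, while the median of all genes lay between -0.08 and -0.01. No D1, D3 or D21 library shared a sequencing pool with a control, and with pool as a term in the fit 3 of the 8 genes passed at D2, none at D3 and 3 at D10. That fit called 14.7% of all genes at D2 (10.9% higher, 3.74% lower), 2.36% at D3 (2.35% higher, 0.00926% lower, which is 1 gene) and 22.3% at D10 (14.9% higher, 7.31% lower). Summed markers of other cell types in the microglia also differed between Ctrl and D1 to D3: 88.5 and 135 CPM against 1.69 to 15.7 CPM for 6 T or NK cell markers, 231 and 313 against 33.7 to 104 CPM for 4 B cell markers, 61.5 and 64.9 against 0 to 16.9 CPM for 4 platelet markers, and 203 and 223 against 28.1 to 105 CPM for 8 neutrophil markers. The sum of 5 astrocyte markers was at 130 and 156 CPM in Ctrl against 8.24 to 79.2 CPM at D1 to D3. In both controls 5 of the 6 T or NK cell markers and 2 of the 4 B cell markers were at 0. In each control, 2 or 3 of the 4 platelet markers and 2 or 3 of the 8 neutrophil markers were at 0. At D10, where none of the 8 genes passed, these 5 sums also lay below both controls, and their part in the results was not tested.

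**Figure D1:**
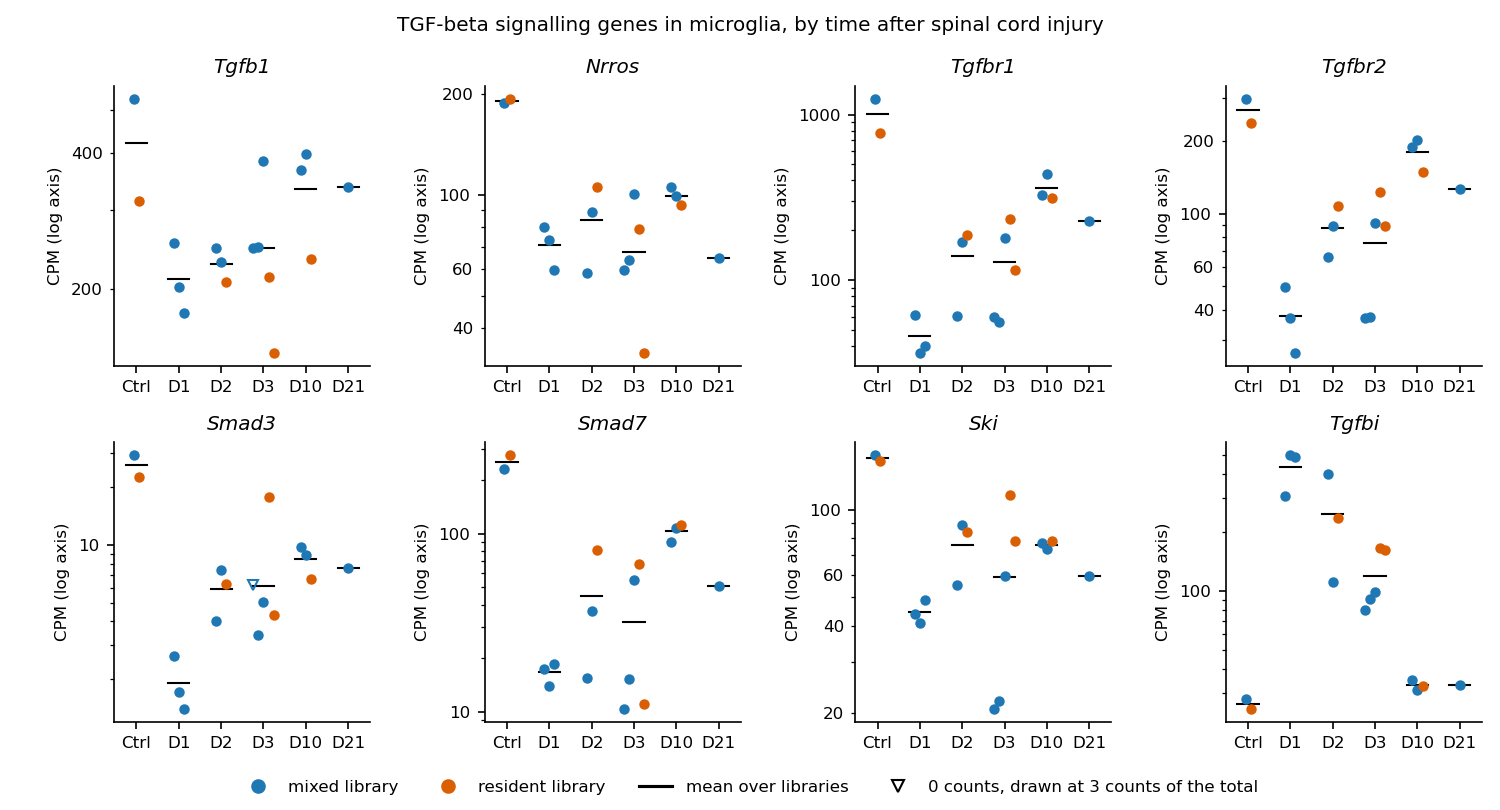
Level of each of the 8 genes in microglia (CPM, log axis) by time point. Each point is 1 library, coloured by sort, the line is the mean over libraries, and an open triangle marks a library with 0 counts drawn at its detection limit. Tgfbr1 drops from 771 and 1246 CPM in the controls to 36.2 to 61.5 CPM at D1, and Tgfbi climbs from 24.8 and 28.0 to 307 to 499 CPM.

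The size of each change depends on the scaling. TMM, edgeR's scaling of each library to the bulk of its genes, gave the controls factors of 1.38 and 1.46 and the D1 libraries 0.84 to 0.91. A fall in plain CPM is for that reason larger than the log2 change of the fit. Without these factors the median of all genes moved, in the same order, by -0.73, -0.40, -0.62, -0.60 and -0.94. At D1 the calls then became 1282 higher and 4383 lower, in place of 2577 higher and 2457 lower. This setting was added after the data had been seen. All 8 genes passed at D1 without the factors, against 52.4% of all genes, with Tgfb1 at -1.04, Ski at -1.63 and Nrros at -1.50, so the standing of these 3 changed with the scaling, whereas the direction of the receptors, Smad3, Smad7 and Tgfbi at D1, D2 and D3 does not.

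Tgfb1 encodes the TGF-beta ligand that microglia make themselves. It was at 529 CPM in Ctrl_mixed 1 and 314 CPM in Ctrl_resident 1. The D1 libraries had 254, 203 and 177 CPM, the D2 libraries 207, 247 and 229 CPM, and the D3 libraries 212, 144, 247, 248 and 385 CPM. At D10 it was at 233, 368 and 398 CPM and at D21 at 337 CPM. All D1 and D2 libraries thus lay below both controls in CPM, while the D3, D10 and D21 values ran into the control range. On the scale of the fit the differences were small: -0.31 at D1 (SE 0.37, adjusted p = 0.522), -0.55 at D2 (SE 0.35, 0.243), -0.22 at D3 (SE 0.33, 0.630), 0.23 at D10 (SE 0.36, 0.738) and 0.55 at D21 (SE 0.46, 0.514). No time point passed. Without Ctrl_mixed 1, the library with the highest Tgfb1, the values at D1, D2 and D3 were 0.16, 0.02 and 0.29, and with all sums thinned to equal depth Tgfb1 passed at D1 (-1.06).

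Nrros, the surface anchor of the latent ligand, was at 188 and 194 CPM in the 2 controls. It was at 80.1, 73.5 and 59.6 CPM at D1, at 106, 58.7 and 88.8 CPM at D2, and at 79.4, 33.7, 59.8, 64.2 and 100.6 CPM at D3. The D10 libraries had 93.6, 106 and 99.5 CPM and the D21 library 64.9 CPM. Every injured library lay below both controls. In the fit Nrros fell at D3 by 0.98 on the log2 scale (SE 0.30, adjusted p = 0.0169) and passed at no other time point, with -0.78 at D1 (SE 0.34, 0.0674), -0.85 at D2 (SE 0.33, 0.0614), -0.38 at D10 (SE 0.32, 0.505) and -0.63 at D21 (SE 0.45, 0.440). The D3 call was lost without Ctrl_mixed 1 (-0.90, adjusted p = 0.116), without Ctrl_resident 1 (-1.05, 0.0945) and at equal depth (-1.06, 0.0671). The D1 value passed without D3_resident 2 (-0.89), D3_mixed 2 (-0.86) or D21_mixed 1 (-0.85) and with median-of-ratios scaling (-0.95), and the D2 value without D2_resident 1 (-1.13), D3_mixed 3 (-0.83) or D3_resident 2 (-0.89) and with that scaling (-0.94).

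Tgfbr1, the kinase that hands the signal on to Smad2 and Smad3, had the largest fall of the 8 genes at D1. It was at 1246 CPM in Ctrl_mixed 1 and 771 CPM in Ctrl_resident 1, and at 61.5, 36.2 and 39.9 CPM in the D1 libraries. The D2 libraries had 188 (resident), 60.7 and 170 CPM, and the D3 libraries 234 and 115 (resident) and 59.8, 55.7 and 179 CPM (mixed). At D10 the values were 312, 326 and 439.5 CPM, above every library of D1 to D3, and the D21 library, at 226 CPM, lay within the D3 range. No injured library reached the control range. Tgfbr1 fell by 3.66 on the log2 scale at D1 (SE 0.54, adjusted p = 6.782e-05), by 2.49 at D2 (SE 0.53, 0.00256) and by 2.35 at D3 (SE 0.44, 0.000713), and these calls stayed when any 1 library was left out. The values at D10 and D21, -0.86 (SE 0.50, adjusted p = 0.316) and -1.35 (SE 0.71, 0.290), did not pass. In order of mean level the time points ran Ctrl (1009 CPM), D10 (359), D21 (226), D2 (139.7 ± 69.0, SD, n = 3), D3 (129 ± 77.3, n = 5) and D1 (45.9 ± 13.6, n = 3), where D2 and D3 differed by less than their spread.

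Tgfbr2, the receptor that binds the ligand, moved with Tgfbr1 over a smaller range. The controls were at 299 and 237 CPM, and the D1 libraries at 49.4, 37.0 and 26.5 CPM. At D2 it was at 107.5, 66.2 and 88.8 CPM and at D3 at 123, 89.1, 37.1, 37.1 and 91.8 CPM. The D10 libraries had 148, 189 and 201 CPM and the D21 library 126 CPM. In CPM no injured library reached the controls. Tgfbr2 fell by 2.07 at D1 (SE 0.42, adjusted p = 0.000774), by 1.22 at D2 (SE 0.41, 0.0323) and by 1.20 at D3 (SE 0.36, 0.0157). At D10 and D21 it was at 0.03 (SE 0.40, adjusted p = 0.976) and -0.27 (SE 0.54, 0.814). The D2 call was lost without Ctrl_mixed 1 (-1.05), Ctrl_resident 1 (-1.40), D2_mixed 1 (-0.92) or D2_mixed 2 (-1.25), and the D3 call without Ctrl_mixed 1 (-1.03) or Ctrl_resident 1 (-1.37).

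Smad3, the transcription factor that Tgfbr1 activates, had few counts in every library. The controls were at 29.5 CPM (165 counts) and 22.7 CPM (42 counts). The D1 libraries were at 2.63, 1.71 and 1.39 CPM, from 24 counts in all. D2 gave 6.29, 4.01 and 7.40 CPM, the last from 1 count. D3 gave 17.9, 4.33, 0, 3.38 and 5.03 CPM from 28 counts, and the library at 0, D3_mixed 1, allows up to 6.18 CPM, the level of 3 counts. D10 gave 6.65, 9.80 and 8.87 CPM and D21 7.62 CPM. Both controls stood above all injured libraries, and D3_resident 1 stood above the other D3 libraries. Smad3 fell by 2.87 at D1 (SE 0.56, adjusted p = 0.000587), by 1.77 at D2 (SE 0.53, 0.0189) and by 1.54 at D3 (SE 0.50, 0.0239), and its -0.93 at D10 (SE 0.48, 0.247) and -1.05 at D21 (SE 0.67, 0.381) did not pass. The D2 call was lost without Ctrl_mixed 1 (-1.69), Ctrl_resident 1 (-1.85) or D2_mixed 1 (-1.36), and the D3 call without Ctrl_mixed 1 (-1.46) or Ctrl_resident 1 (-1.60).

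Smad7, the inhibitory Smad that TGF-beta itself induces, lies at chr18:75367529-75395935 (GRCm38, + strand) and fell about as far as Tgfbr1. It was at 231 CPM in Ctrl_mixed 1 and 278 CPM in Ctrl_resident 1, and at 17.3, 14.0 and 18.6 CPM at D1. The D2 libraries spread widely, with 81.1 CPM in D2_resident 1, 15.5 in D2_mixed 1 and 37.0 in D2_mixed 2. The D3 libraries spread as widely, with 67.5 and 11.1 CPM in the resident and 10.3, 15.2 and 55.3 CPM in the mixed ones. At D10 it was at 113, 90.3 and 108 CPM and at D21 at 50.9 CPM. The D10 libraries lay above every library of D1 to D3 and below both controls. Smad7 fell by 3.21 at D1 (SE 0.63, adjusted p = 0.000665), by 2.03 at D2 (SE 0.63, 0.0227) and by 2.44 at D3 (SE 0.54, 0.00252). Its -0.71 at D10 (SE 0.58, 0.495) and -1.45 at D21 (SE 0.87, 0.352) did not pass. The D2 call was lost without Ctrl_mixed 1 (-2.15), Ctrl_resident 1 (-1.83) or D2_mixed 1 (-1.33), the D2 value was -3.44 without D2_resident 1, and the D3 call was lost without Ctrl_resident 1 (-2.25, adjusted p = 0.0505).

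Ski, the nuclear repressor of Smad complexes, passed at no time point. It was at 155 and 148 CPM in the controls, 44.0, 40.7 and 49.2 CPM at D1, 83.8, 55.2 and 88.8 CPM at D2, and 113, 78.5, 20.6, 21.9 and 59.1 CPM at D3. At D10 its 3 libraries were close together at 78.1, 76.8 and 73.3 CPM, and the D21 library was at 59.4 CPM. The controls were above all injured libraries in CPM. The log2 values of Ski were -0.90 at D1 (SE 0.45, adjusted p = 0.110), -0.62 at D2 (SE 0.45, 0.305), -0.70 at D3 (SE 0.40, 0.180), -0.36 at D10 (SE 0.43, 0.661) and -0.61 at D21 (SE 0.61, 0.592). The D1 value passed without D3_mixed 2 (-1.03), with no filter on low counts (-1.02) and with all sums thinned to equal depth (-1.80, adjusted p = 0.0310), and the D3 value without D3_resident 1 (-1.08).

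Tgfbi encodes a secreted matrix protein that was first found as a gene induced by TGF-beta, and it went the other way. The controls were at 28.0 and 24.8 CPM. The D1 libraries had 307, 499 and 486 CPM, the D2 libraries 237, 401 and 111 CPM, and the D3 libraries 167, 162, 80.4, 91.2 and 99.3 CPM. At D10 it was back at 32.8, 35.1 and 31.3 CPM and at D21 at 33.1 CPM. All libraries of D1 to D3 lay above all others, and D1 and D3 did not overlap. Tgfbi rose by 5.03 on the log2 scale at D1 (SE 0.50, adjusted p = 3.444e-06), by 3.71 at D2 (SE 0.46, 4.027e-05) and by 2.94 at D3 (SE 0.43, 0.000103), and these calls stayed when any 1 library was left out. The values of 1.04 at D10 (SE 0.42, adjusted p = 0.136) and 0.94 at D21 (SE 0.54, 0.334) did not pass. Macrophages had more Tgfbi than the microglia of the same library, and the summed level of 11 monocyte and macrophage markers in the microglia was 340 to 390 CPM in Ctrl, 975 to 1641 CPM at D1 and 1294 to 1658 CPM at D2. It was 1845 to 2834 CPM at D3, then 2274 to 3492 CPM at D10 and 4643 CPM in the D21 library. Tgfbi in the macrophages themselves had a mean of 1778 CPM at D1 and 260 CPM at D10, in infiltrating and mixed libraries. Of the 11 markers, 2 were at 0 in both controls. The summed level of 6 border macrophage markers, 1 of them also on the other list, was also higher in every injured library than in the controls, with 2.50 and 7.01 CPM in Ctrl, 37.2 to 159.7 CPM at D1 and 61.96 to 296 CPM at D2. It was 26.8 to 169 CPM at D3, 30.8 to 122 CPM at D10 and 24.8 CPM at D21, and 2 of the 6 were at 0 in both controls. The part of either sum in the Tgfbi values was not tested.

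**Figure D2:**
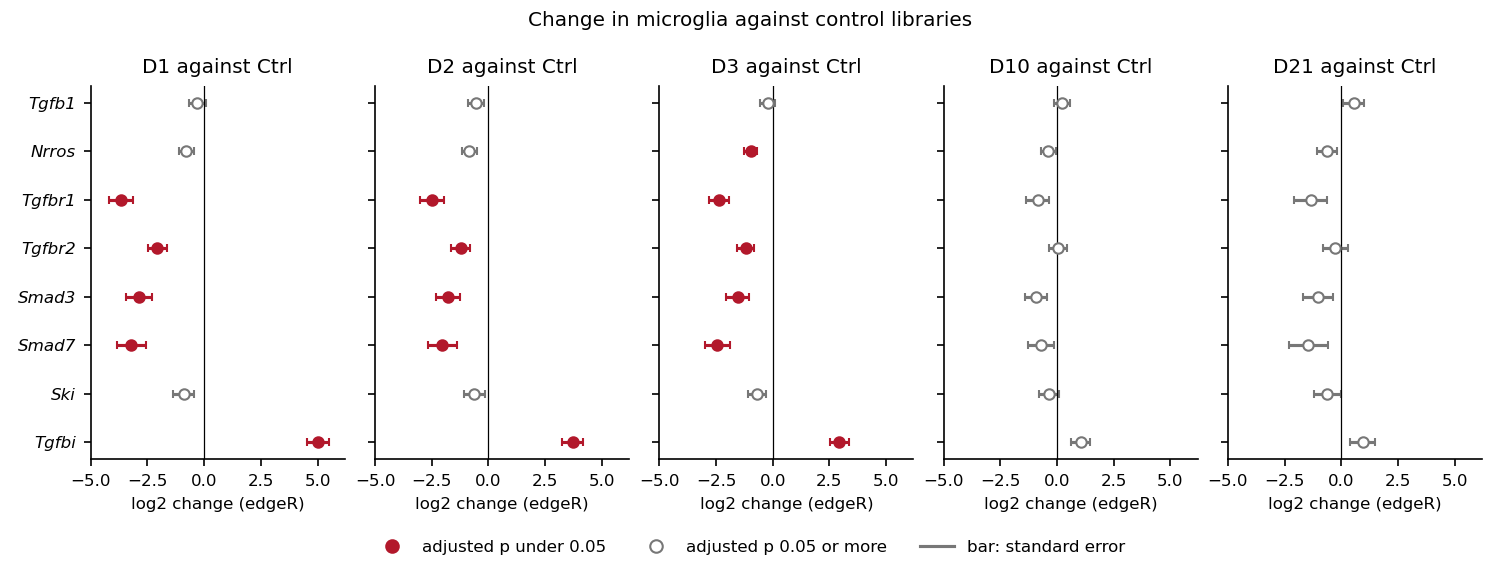
Log2 change of each gene in microglia against the control libraries (edgeR) at each time point. Bars are 1 standard error on each side, filled points passed at an adjusted p under 0.05 and open points did not. Tgfbr1, Tgfbr2, Smad3 and Smad7 sit left of 0 and Tgfbi right of 0 with filled points at D1, D2 and D3, and all points are open at D10 and D21.

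Contrasts between injured groups do not use the control level. From D1 to D3, 2 of the 8 genes passed, against 18.8% of all genes. Tgfbr1 rose by 1.31 (SE 0.44, adjusted p = 0.0451) and Tgfbi fell by 2.09 (SE 0.31, 0.00026). The Tgfbr1 call was lost without any of 10 of the 17 libraries (values between 1.05 and 1.53), namely each D1, each D10 and both D3_resident libraries, D3_mixed 3 and D2_mixed 2. Tgfbr2 (0.87, adjusted p = 0.0861) passed without D3_mixed 1 (1.01) or D3_mixed 2 (1.09), and Smad3 (1.33, 0.104) without D3_mixed 1 (1.50).

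From D3 to D10, 4 of the 8 genes passed, against 6.88% of all genes. Tgfbr1 rose by 1.49 (SE 0.39, adjusted p = 0.0341), Tgfbr2 by 1.23 (SE 0.32, 0.0311) and Smad7 by 1.73 (SE 0.50, 0.0465), while Tgfbi fell by 1.90 (SE 0.34, 0.00411). Tgfb1 (0.45), Nrros (0.60), Ski (0.34) and Smad3 (0.61) did not pass. The Tgfbr1 call was lost without any of the 3 D10 libraries, D3_mixed 1, D3_mixed 2 or D3_resident 2 (1.25 to 1.65), and the Tgfbr2 call without any D10 library, D3_mixed 1 or D3_mixed 2 (1.04 to 1.40). The Smad7 call was lost without any of 11 of the 17 libraries (1.44 to 1.81), namely both controls, D1_mixed 1 and 2, D2_mixed 2, each D10 library, D3_mixed 1 and 2 and D3_resident 2, and Nrros passed without D3_mixed 3 (0.80). The Tgfbi call was lost at equal depth (-1.27, adjusted p = 0.0988) and with pool as a term (-2.02, 0.966).

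The libraries lay in 7 sequencing pools, as the deposited table names them. Ctrl_mixed 1 shared a pool with D10_mixed 1 and 2, and Ctrl_resident 1 shared one with D2_resident 1 and D10_resident 1. No D1, D3 or D21 library shared a pool with a control, and for D1 and D21 against Ctrl the time point and the pool cannot be told apart. With pool as a term, Tgfbr1 (-1.76, adjusted p = 0.0146), Smad7 (-1.40, 0.0101) and Tgfbi (4.02, 0.00103) passed at D2, and Tgfbr2 (-0.73, 0.132) and Smad3 (-1.43, 0.0781) did not. At D3, which is then tied to the controls only through D2 libraries, none of the 8 passed in a fit that called 1 gene lower: Tgfbi was at 3.06 (adjusted p = 0.0708), Tgfbr1 at -0.56, Tgfbr2 at -0.24, Smad3 at -1.17, and Smad7 (0.25), Nrros (0.22) and Tgfb1 (0.79) changed sign. Of the D3 libraries in this fit, only D3_mixed 3 shares a pool with microglia sums of another time point, namely D2_mixed 1 and 2. These D3 values with pool as a term therefore rest on D3_mixed 3. At D10, where all 3 libraries share a pool with a control, Tgfbr1 (-0.97, adjusted p = 0.0183), Smad3 (-1.14, 0.0327) and Smad7 (-0.70, 0.0233) passed. From D3 to D10 that fit called 0% of the 10801 genes, so it gives no result on these 8, and Tgfbr1 (-0.41), Smad7 (-0.95), Tgfb1 (-0.65), Nrros (-0.62) and Ski (-0.062) changed sign.

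The 2 controls differ in sort and in sex. With mixed libraries alone, which leaves Ctrl_mixed 1 as the only control, Tgfbr1 and Tgfbi passed at D1 (against 10.8% of all genes) and at D3 (5.63%), and Tgfbr2 (-2.42, adjusted p = 0.104), Smad3 (-3.80, 0.272) and Smad7 (-4.05, 0.0895) did not pass at D1. At D3 Tgfbr2 (-1.97, adjusted p = 0.221), Smad3 (-3.11, 0.405), Smad7 (-3.36, 0.182) and Nrros (-1.08, 0.330) did not pass. These values are larger than with all libraries and have larger errors. This fit kept the sex term, and its control is female while its D1 and D3 libraries are male. Among mixed libraries D2 is the only time point with both sexes. Every D1 or D3 value against Ctrl from mixed libraries alone thus also depends on D2_mixed 1 (female) against D2_mixed 2 (male). D2_mixed 2 holds 23 microglia, and the parts of sex, sort and a single control cannot be told apart here. The median of all genes in this fit was 0.83 at D1 and 0.71 at D3, with 994 genes called higher and 212 lower at D1 and 582 and 46 at D3.

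Within single pools the values can be set side by side with no test. In the pool of Ctrl_resident 1, D2_resident 1 had scaled log2 ratios of -1.61 for Tgfbr1, -0.72 for Tgfbr2, -1.42 for Smad3, -1.35 for Smad7 and 3.68 for Tgfbi, and of -0.18 for Tgfb1, -0.39 for Ski and -0.45 for Nrros. In the same pool D10_resident 1 had -0.69 for Tgfbr1, -1.16 for Smad3, -0.69 for Smad7 and 1.01 for Tgfbi. In the pool of Ctrl_mixed 1, the 2 D10_mixed libraries had -1.40 and -0.95 for Tgfbr1 and 0.86 and 0.71 for Tgfbi. In the pool of the D1 libraries, D21_mixed 1 had 2.11 to 2.80 for Tgfbr1 and -2.98 to -3.76 for Tgfbi against the 3 D1 libraries. The lower receptor and higher Tgfbi early after injury were thus seen between libraries of 1 pool at D2. D2_resident 1 is the only D2 library that shares a pool with a control. The D2 values with pool as a term therefore rest mainly on the same pair of libraries and are not separate evidence. At D10 Tgfbr1 stayed below the control of its own pool in each of the 3 libraries.

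Macrophages and microglia of the same library share its time point, sort, sex and pool. Over 14 libraries with at least 20 cells of both types, 4 of the 7 genes tested passed, against 28.3% of the 7358 genes tested, and Smad3 was below the filter. Tgfbi was higher in the macrophages of 14 of 14 libraries, with medians of 774 CPM in macrophages (148 to 2314) and 164 CPM in microglia (31.3 to 486), a log2 difference of 2.19 (SE 0.24, adjusted p = 9.287e-07). Nrros was higher in the macrophages of 13 of 14 libraries, with medians of 137 and 79.7 CPM (0.68, SE 0.15, adjusted p = 0.00188). Tgfbr2 was higher in the microglia of 10 of 14 libraries, with medians of 90.4 and 43.4 CPM (-1.14, SE 0.23, adjusted p = 0.00097). Tgfbr1 was higher in the microglia of 9 of 14 libraries, with medians of 174 and 86.8 CPM (-0.78, SE 0.27, adjusted p = 0.0390). Tgfb1 (0.20, adjusted p = 0.316), Ski (-0.25, 0.272) and Smad7 (-0.32, 0.573) did not pass, and Smad7 was higher in microglia in 7 libraries and in macrophages in 7. The Tgfbr1 call was lost without any of D2_resident 1, D2_mixed 2, D3_resident 1, D3_mixed 3 or the D10_resident and D10_mixed libraries (-0.63 to -0.80), with median-of-ratios scaling (-0.74, adjusted p = 0.0558) and without scaling factors (-0.71, 0.0749). Without the infiltrating libraries, a setting added after the data had been seen, the same 4 genes passed, against 28.2% of all genes. Over days 10 and 21 alone, where 6.63% of all genes passed, Tgfbi and Smad7 (-1.51, SE 0.39, adjusted p = 0.0411) passed and Tgfbr1, Tgfbr2 and Nrros did not, and over days 1 to 3 alone, where 38.6% did, Smad7 was at 0.39 (adjusted p = 0.442).

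**Figure D3:**
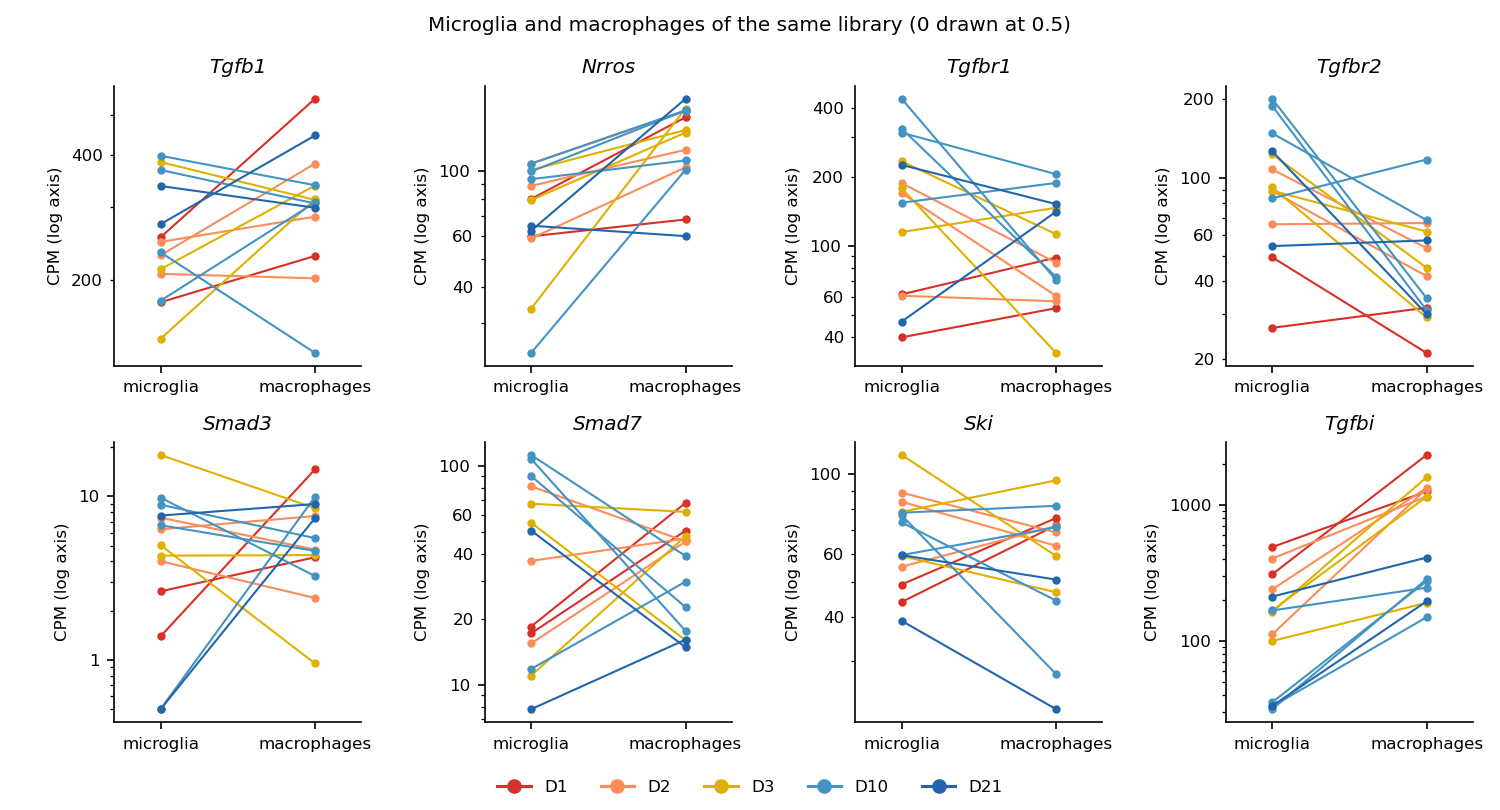
Level of each gene (CPM, log axis) in the microglia and macrophages of the same library, with 1 line per library coloured by time point and 0 drawn at 0.5. All 14 Tgfbi lines go up from microglia to macrophages, while the Smad7 lines go up in 7 libraries and down in 7.

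A further test, added after the data had been seen, asked whether the gap between macrophages and microglia changed from days 1 to 3 to days 10 and 21. Of the 8559 genes tested 11.1% passed, and among the 7 of the 8 genes tested Smad7 alone did, at -1.95 (SE 0.60, adjusted p = 0.0399). Smad7 was at 17.3 and 18.6 CPM in the microglia and 50.8 and 68.1 CPM in the macrophages of the 2 D1 libraries tested. At D10 it was at 113, 90.3 and 108 CPM in the microglia and 38.9, 22.8 and 17.7 CPM in the macrophages of the resident and mixed libraries. Of the 6 D2 and D3 libraries, 3 had more Smad7 in microglia, namely D2_resident 1 (81.1 against 45.4 CPM), D3_resident 1 (67.5 against 61.9 CPM) and D3_mixed 3 (55.3 against 16.1 CPM), and 3 had more in macrophages. The order of the cell types thus differed between the D1 libraries and these D10 libraries but not between all early and late ones. D21_mixed 1 (50.9 against 14.9 CPM) had the order of these D10 libraries, and D10_infiltrating 2 and D21_infiltrating 1, with 1 Smad7 count each in their few microglia, had the D1 order. The call was lost without any of 9 of the 14 libraries (-1.63 to -2.004), namely D1_mixed 1 and 3, D2_mixed 1 and 2, D3_resident 2, D10_resident 1, D10_mixed 1 and 2 and D21_mixed 1. Tgfbr1 (-0.14), Tgfbr2 (-0.56), Tgfbi (-0.07), Tgfb1 (-0.47), Ski (-0.42) and Nrros (-0.14) did not pass.

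No control library held 20 macrophages, so in these cells D10 was compared with D1 over infiltrating and mixed libraries (15 sums, 8577 genes). Of the 8 genes 3 passed, against 14.4% of all genes. Tgfbi was at 1666 and 1883 CPM in the infiltrating and 2314 and 1248 CPM in the mixed D1 libraries, and at 239.9 and 245 CPM (infiltrating) and 273 and 283 CPM (mixed) at D10. The groups did not overlap, and Tgfbi fell by 2.73 (SE 0.43, adjusted p = 0.00217). Between these times it was at 1461 ± 416 CPM at D2 (SD, n = 3) and, at D3, at 1638 CPM in D3_infiltrating 1 and 189 CPM in D3_mixed 3. D3_mixed 3 stood apart here, since the macrophages of D3_resident 1 and 2 and D3_conflict 1 were at 1140.1, 1589 and 1373 CPM. Tgfbi in microglia and in macrophages thus had high values at D1 and low values at D10 in each cell type.

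The receptors were higher in D10 than in D1 macrophages, with Tgfbr1 at 1.40 (SE 0.44, adjusted p = 0.0483) and Tgfbr2 at 1.47 (SE 0.47, 0.0490). Tgfbr1 was at 264 and 188 CPM in the infiltrating and at 73.2 and 71.0 CPM in the mixed D10 libraries, against 44.7 to 89.0 CPM at D1. Over mixed libraries alone Tgfbr1 was at 0.22 (adjusted p = 0.719) and Tgfbr2 at 0.41 (0.575). The Tgfbr1 call was lost without any of 11 of the 15 libraries (1.01 to 1.53) and the Tgfbr2 call without any of 10 (0.92 to 1.57). Libraries whose omission left the Tgfbr1 call were the 2 D10_mixed, D3_infiltrating 1 and D3_mixed 3, and for Tgfbr2 also D2_infiltrating 1. Smad7, at 56.2 ± 8.03 CPM at D1 (n = 4) and 29.4 ± 12.9 CPM at D10 (n = 4), did not pass (-0.89, SE 0.36, adjusted p = 0.116), and passed without D3_infiltrating 1 (-0.90) or D3_mixed 3 (-0.89). With mixed libraries alone, where 15.8% of all genes passed, Smad7 passed at -1.45 (SE 0.42, adjusted p = 0.0353). Tgfb1 (-0.44), Smad3 (-0.23), Ski (-0.21) and Nrros (0.08) did not pass.

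Across the 4 cell types, given here as medians over all libraries with at least 20 cells of the type and with no test, Tgfbi was at 111 CPM in microglia (24.8 to 499, 19 libraries), 1144 in macrophages (148 to 2314, 19), 771 in dendritic-like cells (155 to 1194, 9) and 865 in neutrophil-like cells (665 to 1555, 4). The ranges of the last 3 overlapped. The 4 neutrophil-like libraries are all of D1 or D2, while the microglia include Ctrl, D10 and D21, so these medians compare different times. Tgfb1 was lowest in the neutrophil-like cells, at 95.4 CPM (72.9 to 115), below every library of the other types, whose medians were 247, 313 and 359 CPM. Smad7 (median 144 CPM, 125 to 254) and Ski (197 CPM, 114 to 222) were higher in each neutrophil-like library than in any macrophage or dendritic-like library, whose highest values were 97.5 CPM for Smad7 and 96.1 CPM for Ski. Tgfbr1 had its widest range in microglia, 36.2 to 1246 CPM, and microglia were the one type with control libraries.

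The authors' clusters divide the microglia into 7. Clusters were made from these same cells, so their levels are a description. Cluster 1 held all 1887 control microglia and no cell of an injured library used here, and had pooled levels of 1128 CPM for Tgfbr1, 284 for Tgfbr2, 243 for Smad7 and 27.2 for Tgfbi. Cluster 4 came nearest for the receptors and Smad7, with 488, 217 and 161 CPM, and held 32.8% of D10 microglia and 0.544% of D1 microglia. Cluster 5, which held 69.9% of D1 microglia, had 72.6 CPM of Tgfbr1, 21.9 of Smad7 and 392 of Tgfbi. Cluster 3, which held 48.7% of D10 and 71.8% of D21 microglia, had 156 CPM of Tgfbr1, 28.4 of Smad7 and 67.5 of Tgfbi. Cluster 2 had the lowest Tgfbr1 (33.9 CPM) and Smad7 (14.0 CPM) of the 7, and cluster 7, with 67 cells, had 355 CPM of Tgfbr1 and 376 CPM of Tgfbi. Its 54 cells in a single D2 library were at 349.8 CPM of Tgfbr1 and 222 CPM of Tgfbi, so the pooled Tgfbi value is raised by the few cells of other libraries.

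Tgfbi also differed with time inside clusters. In cluster 5 its mean was 465 CPM in the 3 D1 libraries, 399 in 2 D2 libraries, 136 in 4 D3 libraries, 51.0 in 2 D10 libraries and 29.1 in the D21 library. In cluster 3 the single D1 library with enough cells gave 358 CPM, from 17 counts in 20 cells, and the D2, D3, D10 and D21 means were 167, 109, 29.2 and 34.7 CPM. Tgfbr1 in cluster 5 was lowest at D1 and D3 (47.5 and 52.4 CPM), with 88.9 CPM at D2, 192 at D10 and 122 at D21. In cluster 4 it was at 351 CPM in the D2 library, 396 in the D3 library, 512 ± 73.4 at D10 (SD, n = 3) and 575 in the D21 library, so that levels of both genes varied by time within a cluster as well as between clusters.

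**Figure D4:**
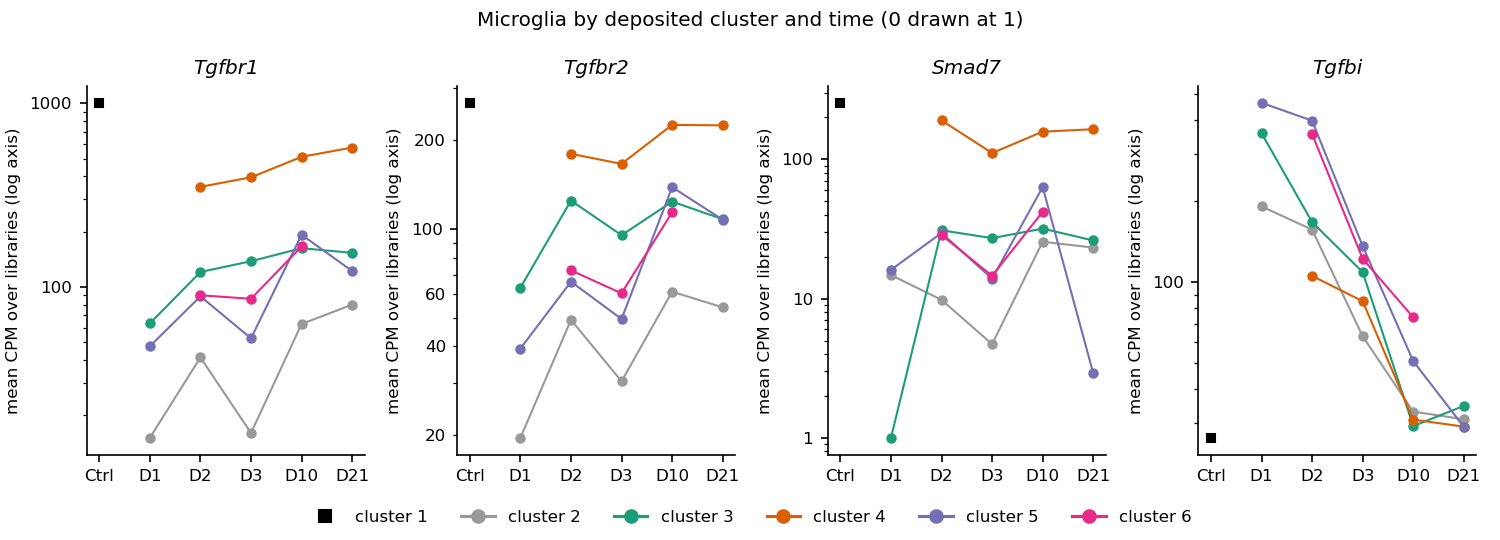
Mean level over libraries (CPM, log axis) of Tgfbr1, Tgfbr2, Smad7 and Tgfbi by time point, with 1 line per deposited microglia cluster, a square for cluster 1, which holds the control microglia, and 0 drawn at 1. The Tgfbi lines of clusters 3 and 5 run from 358 and 465 CPM at D1 to 34.7 and 29.1 CPM at D21, and the Tgfbr1 line of cluster 4 lies above those of clusters 2, 3, 5 and 6.

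Macrophages fell mainly into clusters 8 to 14, among which the pooled level of Tgfbi was highest in clusters 8 (1903 CPM), 11 (1676) and 12 (1502) and lowest in cluster 9 (219). By the median over libraries, clusters 8 (2124 CPM), 12 (1687) and 11 (1672) were again the highest, while cluster 9 (322, with a range of 150.1 to 1085) and cluster 10 (315, 1 library) were close together. Tgfb1 was highest of all 16 clusters in cluster 12, at 677 CPM. Outside the microglia clusters Smad7 had its highest pooled levels in cluster 16, which is neutrophil-like (203 CPM, with 125 to 254 in 4 libraries), and cluster 14 (192 CPM, with 149.6 and 234 in 2 libraries), and by the median over libraries cluster 14 (192 CPM) was above cluster 16 (144 CPM).

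Receptors of the TGF-beta superfamily, on a list that holds Tgfbr1 and Tgfbr2 again, were lower after injury wherever they passed. Of 10 receptors and co-receptors tested, 7 fell and none rose at D1, 7 fell at D2, 8 fell at D3, 2 fell at D10, and none passed at D21, with median log2 changes of -1.44, -1.32, -1.28, -0.49 and -0.93 in that order. As a share of the 10 this was 70% at D1 and D2, 80% at D3 and 20% at D10, beside the 22.7%, 12.2%, 17.6% and 2.22% of all genes that were lower. Besides Tgfbr1 and Tgfbr2 they included Acvr2a, an activin receptor, which fell by 3.50 at D3 (SE 0.65, adjusted p = 0.000672) from 14.5 and 14.6 CPM in the controls to 6 counts over the 5 D3 libraries. Eng, a co-receptor, fell by 1.98 at D3 (SE 0.31, adjusted p = 0.000163). With mixed libraries alone neither passed at D3, with Eng at -0.50 (adjusted p = 0.882) and Acvr2a at -6.16 (0.0716), and nor did Acvr1 (-2.63, 0.304). The BMP receptors Bmpr2 (-1.95) and Bmpr1a (-1.52) and the type I receptor Acvr1 (-1.73 at D3) had their largest falls at D1 or D3. Acvr2a (-1.86) and Eng (-1.48) were the 2 that passed at D10. With pool as a term, 2 of the 10 fell at D2, none at D3 and 4 at D10, beside 3.74%, 0.00926% and 7.31% of all genes.

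Among 12 Smads and adaptors, 5 fell and 1 rose at D1, 4 fell and 2 rose at D2, 5 fell and 2 rose at D3, and 1 rose at each of D10 and D21. The share that passed was 50% at D1 and D2, 58.3% at D3 and 8.33% at D10 and D21, beside 46.6%, 29.7%, 37.6%, 10.3% and 6.98% of all genes in the order of the time points. The riser throughout was Dab2, an endocytic adaptor that binds the receptors and Smads, which went from 4.29 and 12.4 CPM in the controls to 207 to 359.5 CPM at D1 (5.93, SE 0.54, adjusted p = 1.985e-06) and passed at all 5 time points. Dab2 is also made by many macrophages, so the values of the marker sums given above for Tgfbi stand beside it as well, and their part was not tested. Sptbn1, a Smad-binding spectrin, rose at D2 (2.28) and D3 (1.65). Tab2, a partner of the kinase Tak1, fell by 2.03 at D1 (SE 0.38, adjusted p = 0.000414) and Smad1, a carrier of BMP signals, by 1.32 (SE 0.31, 0.00216), and both fell at D2 and D3 too. The other fallers, named after their values were seen, were Smad3 at all 3 times, Smad5 at D1 (-1.47) and D3 (-1.20), Tab1 at D1 (-1.16) and D2 (-1.42) and Zfyve9 at D3 (-1.47). The median was -1.03 at D1 and -0.45 at D10.

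The 15 inhibitors and feedback genes tested also went both ways, with 4 falling and 1 rising at D1 and at D2, 5 falling and 1 rising at D3, and 1 rising at D10 and D21. The share that passed was 33.3% at D1 and D2, 40% at D3 and 6.67% at D10 and D21, which at D1 is below the 46.6% of all genes and at the other times near their shares. Rnf111, a ubiquitin ligase that removes Ski and its relative Skil, fell by 2.66 at D1 (SE 0.40, adjusted p = 8.355e-05). Skil fell by 1.61 at D1 (SE 0.29, 0.00032). Fkbp1a, which binds the type I receptor and holds it inactive, rose by 1.56 at D1 (SE 0.35, 0.00178), but not without the TMM factors (0.83, adjusted p = 0.0571) or at equal depth (0.73, 0.172). The other fallers, named after their values were seen, were Smad7 at all 3 times, Nedd4l at D1 (-1.96), Tgif2 at D2 (-2.18) and D3 (-2.71) and Smurf1 at D3 (-1.12). Bambi, a decoy receptor named here after its values were seen, was the 1 that rose at D10 (2.81) and D21 (3.05). The median was -0.67 at D1 and -0.34 at D10.

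Of the 11 ligand and latency genes tested, 36.4% passed at D1 and D3, 27.3% at D2 and D10 and 18.2% at D21, which is below the share of all genes at D1 (46.6%), near it at D2 and D3 (29.7% and 37.6%) and above it at D10 and D21 (10.3% and 6.98%). Itgav, the alpha chain of the integrins that release latent TGF-beta, fell by 1.95 at D1 (SE 0.40, adjusted p = 0.000872) and passed at D2, D3 and D10 too. Plaur, the receptor of the protease urokinase, rose by 4.42 at D1 (SE 0.50, 8.713e-06), from 8.75 and 13.5 CPM to 125 to 137 CPM, and passed at all 5 time points. In this list 2 rose and 2 fell at D1. The numbers were 1 and 2 at D2, 1 and 3 at D3, then 2 and 1 at D10 and finally 2 and 0 at D21. Named after their values were seen, the others were Furin (1.01) and Itgb5 (-1.31) at D1, Itgb5 (-0.996) at D2, Mmp14 (-1.75) and Nrros at D3, and Plau, urokinase itself, at D10 (2.11) and D21 (2.28).

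Target genes of TGF-beta known from other cell types, on a list that holds Tgfbi again, mostly rose where they passed. Of 11 tested, 6 rose and 1 fell at D1, 5 and 1 at D2, 6 and 2 at D3, and 3 and 0 at D10 and at D21, with medians of 2.95, 2.11, 1.84, 1.04 and 0.41. The share that passed was 63.6%, 54.5%, 72.7%, 27.3% and 27.3% in that order, beside 46.6%, 29.7%, 37.6%, 10.3% and 6.98% of all genes. Fn1, fibronectin, rose by 6.92 at D3 (SE 0.86, adjusted p = 2.8e-05), from 1.07 and 12.4 CPM to 155 to 653 CPM, and was at 224 to 269.8 CPM at D10. It is 1 of the 11 monocyte and macrophage markers whose sum is given beside Tgfbi, and the part of macrophage RNA in its rise was not tested. Bhlhe40, a transcriptional repressor, had its largest value at D21 (4.94, SE 0.50, adjusted p = 7.507e-06), which is 1 library, and rose by 4.81 at D10 (SE 0.44, 2.829e-06), from 1.25 and 2.70 CPM in the controls to 30.4 to 37.3 CPM. Id2 rose by 2.95 at D1 (SE 0.48, adjusted p = 0.00014), and both genes passed at all 5 time points. Id1, which BMP signals also induce, rose by 4.39 at D1 (SE 0.54, 1.7e-05). Junb, an AP-1 factor, fell by 1.37 at D3 (SE 0.25, 0.000606) and was the 1 that fell at D1 (-0.77) and D2 (-1.16), with Myc (-1.21), named after its values were seen, falling beside it at D3. Unlike Fn1 and Bhlhe40, Tgfbi and Id1 did not pass at D10 or D21.

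Of 20 microglia genes known to need TGF-beta, 15 fell and 1 rose at D1, 13 and 1 at D2, 11 and 1 at D3, 7 and 0 at D10, and 3 and 0 at D21, with medians of -1.99, -1.69, -1.31, -0.68 and -1.05. The share that passed was 80%, 70%, 60%, 35% and 15%, beside the same shares of all genes. Slc2a5, a fructose transporter, fell by 5.71 at D1 (SE 0.44, adjusted p = 3.938e-07), from 203 and 226 CPM to 1.71 to 4.16 CPM, and passed at all 5 time points. The purinergic receptor P2ry12 fell by 4.36 at D1 (SE 0.60, 3.726e-05) and was at 271 to 505 CPM at D10 against 1420 and 3590 CPM in the controls. Siglech (-3.77), the phagocytic receptor kinase Mertk (-2.54) and the microglial transcription factor Sall1 (-2.47) fell most at D1, and Jun (-2.98) at D3. Gas6, a ligand of Mertk named after its values were seen, was the 1 that rose at D1 (1.13), D2 (1.29) and D3 (1.39). The 10 microglia markers used to name the cell type are all on this list, and their summed level was 28220 to 30216 CPM in Ctrl, 4794 to 9106 at D1 and 14436 to 16835 at D10. The direction of this list is not independent evidence, since microglia markers were known to fall here. At D21 the 3 that fell were Slc2a5, Tmem119 (-2.14) and Rhob (-1.39), the last 2 named after their values were seen. With pool as a term 9 fell at D2, none at D3 and 9 fell and 2 rose at D10, beside 3.74%, 0.00926% and 7.31% of all genes lower and 14.9% higher at D10. With mixed libraries alone the D1 calls of Itgav, Bmpr2, Tab2, Smad1, Skil, Fkbp1a, Id2, Slc2a5 and Sall1 and the D3 calls of Junb and Jun were lost (adjusted p = 0.0513 to 0.558), while the values kept their sign and were for example -2.67 for Itgav, -2.53 for Tab2, -1.93 for Skil, 1.84 for Fkbp1a, -3.98 for Slc2a5 and -1.42 for Junb, and Bmpr1a at D1 turned to 5.71 (0.626). Tab2 did not pass at equal depth (-1.46, adjusted p = 0.142).

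Across the 17 microglia sums, Tgfbr1 and Tgfbr2 followed each other most closely of the 8 genes (Pearson r = 0.97 of log2(CPM + 1)). Tgfbr1 also followed Smad7 (0.94), Smad3 (0.88) and Ski (0.81). For Tgfb1 the values ran from 0.29 to Ski up to 0.70 to Nrros, leaving Tgfbi aside. Tgfbi ran opposite to Tgfbr1 (-0.82) and less so to Ski (-0.37). These are descriptions over sums that share time points, pools and scaling by total counts. Of all 10801 genes the most alike to Tgfbr1 were Tcf4, Entpd1 and Ttc28 (r = 0.97 each), to Tgfbr2 Tgfbr1 itself, Abca9 (0.97) and Marcks (0.96), and to Smad7 Ogt (0.98), Arl10 and Ubn2 (0.97 each). Those most alike to Smad3 were Psme2b, 2610008E11Rik and Kdm6a (0.94 to 0.95), to Ski Lnpep, Ep300 and Apc (0.96 each), and to Nrros Zbtb7a (0.96), Iffo1 and P2ry6 (0.94 each). Tgfbi was most like Gars (0.95), Psmd13 and Nol7 (0.94 each).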

How the data were processed

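Single-cell RNA of sorted myeloid cells from mouse spinal cord was measured in 25 libraries with 10x Genomics 3′ chemistry. The authors' deposited values are UMI counts of every gene in every cell, library by library, made with Cell Ranger 3.1.0 on GRCm38 (mm10) per the submitters' processing notes, and a table of cells with cell type codes, clusters, sequencing pool and the percent of mitochondrial counts, per the file headers. The deposited percent values entered no test. The deposited cells were used as they stand, with no further doublet or free-RNA step, and how the authors treated doublets is not given in the sources used here.

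Counts were summed over the cells of 1 type in each library, with at least 20 cells, and given as CPM of the sum. Sums were compared with edgeR 4.0.16 (R 4.3.3), quasi-likelihood test, TMM scaling, filterByExpr and terms for time point and sex, two-sided, with Benjamini-Hochberg adjustment over all genes tested and a threshold of 0.05. The within-library comparison had library as a block and cell type as the term. The script was tested on simulated data. Alternatives were DESeq2 1.42.0, median-of-ratios scaling, no filter, at least 50 cells, equal depth, mixed libraries alone, days 1 to 3 or days 10 and 21 alone (within libraries), sort, pool or replicate number as terms, no cluster 2 cells and each library left out. A further alternative added D3_conflict 1 to the macrophage sums. Plain CPM without scaling factors, the within-library fit without infiltrating libraries and the change of the cell type gap over time were added after the data had been seen.

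The 8 genes, the pathway lists and the marker lists were chosen with earlier results of these data known. All 8 genes are named throughout. From each pathway list, genes passing in at least 3 of the 5 contrasts with the controls are named, up to 6 by size of change, and for each of the 8 genes the 3 most alike by Pearson r of log2(CPM + 1). Those of Tgfb1 are not reported here. Depth was 486649 to 33204422 UMIs per library. The microglia sums compared between time points ranged from 135097 to 7794902 UMIs, so counts such as those of Smad3 are coarse. The level of 3 counts is given as the limit where a library had 0, and covers counting error only. D2_infiltrating 1 carries different sexes in the labels and the deposited table, and the label was used. Sequences come from RefSeq (GRCm38.p6) and gene positions from GENCODE. Of the 8 genes, 7 had a promoter entry that could be used.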

Additional observations from a re-analysis of the deposited data

Results flagged for a closer look

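Of 24 groups of 4 to 10 libraries checked for a single library far from the others, 2 had one, and chance alone marks about 1 in 20 groups. Smad3 in D3 microglia was at 17.87 CPM in D3_resident 1, from 9 counts, against 0 to 5.03 CPM in the other 4 libraries. Smad7 in D1 macrophages was at 68.11 CPM in D1_mixed 3, whose macrophages numbered 54, against 50.85 to 52.87 CPM in the other 3 libraries.

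The gap in Smad7 between macrophages and microglia of a library differed between days 10 and 21 and days 1 to 3 by -1.95 on the log2 scale (edgeR, SE 0.60, adjusted p = 0.0399). This test was added after the data had been seen, and its call was lost without any of 9 of the 14 libraries.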

How the results depend on the processing

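Over 78 results on the 8 genes, 1817 of 2065 alternative values kept direction and side of the threshold, 143 lost a call, 39 gained one and 66 turned sign, 4 of them from a value that had passed and 62 where neither value passed. The number of the 8 genes that passed at D1 (5 as reported) became 2 with mixed libraries alone and 8 without scaling factors. At D2 (5) it became 3 at equal depth, where Smad3 was below the filter and Tgfbr2 lost its call, and 3 with pool as a term, and at D3 (6) 2 with mixed libraries alone and 0 with pool as a term. At D10 (0) it became 3 with pool as a term and 3 without scaling factors, and at D21 (0) 1 without scaling factors. From D1 to D3 (2) it was 4 with DESeq2 and 1 with at least 50 cells, equal depth, mixed libraries alone or sort as a term. From D3 to D10 (4) it was 1 at equal depth, 1 with mixed libraries alone and 0 with pool as a term. In macrophages, D10 against D1 (3), it was 1 with at least 50 cells, sort as a term or no scaling factors. Within libraries (4) it was 1 at equal depth, where 1175 genes were tested, Tgfbr1 lost its call and Tgfbr2 and Nrros were below the filter, 2 with mixed libraries alone and 2 with days 10 and 21 alone (Tgfbi and, newly, Smad7). For the change of the gap over time (1) it was 0 with at least 50 cells, without cluster 2 or without scaling factors, 0 at equal depth, where Smad7 was below the filter and so not tested, and 2 with mixed libraries alone. Other causes were not tested.

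With 1 library left out at a time the numbers passing ranged from 5 to 7 at D1, 2 to 6 at D2, 2 to 7 at D3, 0 to 0 at D10 and 0 to 0 at D21. They ranged from 1 to 4 for D1 to D3, 1 to 5 for D3 to D10, 1 to 4 for macrophages, 3 to 4 within libraries and 0 to 1 for the change of the gap. Of values that had passed, the sign turned with pool as a term for Smad7 (0.25), Nrros (0.22) and Jun (0.33) at D3 and for Tgfbr1 (-0.41) and Smad7 (-0.95) from D3 to D10, and with mixed libraries alone for Bmpr1a at D1 (5.71). With pool as a term, the D3 level rests on D3_mixed 3 alone.

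The other turns were of values that passed neither as reported nor under the alternative. With pool as a term they were Tgfb1 (0.79) at D3, Tgfbr2 (-0.075) at D10, and Tgfb1 (-0.65), Ski (-0.062) and Nrros (-0.62) from D3 to D10. At equal depth they were Tgfb1 (-0.40), Tgfbr2 (-0.44) and Nrros (0.047) at D10, Tgfb1 (-0.032) and Nrros (0.38) at D21, Nrros (0.19) from D1 to D3, Ski (-0.014) from D3 to D10 and Tgfbr1 (0.27) for the change of the gap. Without scaling factors they were Tgfb1 (-0.36) and Tgfbr2 (-0.55) at D10 and Tgfb1 (-0.31) at D21. With mixed libraries alone they were Tgfb1 (0.085) at D3, Tgfbr2 (-0.23) at D10, Ski (-0.47) from D1 to D3 and Tgfbi (0.90) for the gap. Tgfbr2 at D10 was also at -0.065 with median-of-ratios scaling, -0.059 with DESeq2, -0.052 with no filter and -0.024 with at least 50 cells. With at least 50 cells Tgfb1 within libraries was at -0.063 and Tgfbi for the gap at 0.92, which was 0.53 without cluster 2 and 0.49 without infiltrating libraries. Ski from D1 to D3 was at -0.11 with sort as a term, Nrros in macrophages at -0.063 with no filter, Tgfb1 within libraries at -0.045 over days 10 and 21, and Smad7 there at 0.39 over days 1 to 3.

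With 1 library left out, Tgfb1 ranged from -0.83 to 0.16 at D1, -1.01 to 0.020 at D2, -0.73 to 0.29 at D3, -0.28 to 0.76 at D10 and -0.14 to 0.29 from D1 to D3, and Tgfbr2 at D10 from -0.15 to 0.27. From D1 to D3 Ski ranged from -0.018 to 0.47 and Nrros from -0.43 to 0.059. In macrophages Smad3 ranged from -0.64 to 0.075 and Nrros from -0.21 to 0.40. For the gap, Tgfbr1 ranged from -0.44 to 0.27, Nrros from -0.26 to 0.089 and Tgfbi from -0.28 to 0.20.

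With the replicate block, 1 gene passed from D1 to D3 and 1 in macrophages, Smad3 at D3 was at -1.33 (adjusted p = 0.0849), and deviations of same-numbered mixed libraries correlated between -0.19 and 0.11. These deviations were taken from means of very few libraries, so they cannot show whether the replicate numbers pair the samples.

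Control microglia came from 2 libraries and D21 from 1. Pools and time points overlap little, D2_mixed 2 holds 23 microglia and Smad3 has under 30 counts in all at D1 and at D3, so small differences of these groups could not be detected at this depth. With a pseudocount of 10 CPM only 1 of the 3 most alike genes was shared for Tgfbr1, Smad3 and Ski.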
